A study of Mus musculus with 6 samples.

Results

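Chromatin accessibility was examined at the genes of the chemokine system, the secreted chemokines and the receptors that read them. The genes were chosen by symbol (Ccl, Cxcl, Ccr, Cxcr or Xcl with a number, and Cx3cl1, Cx3cr1 and Xcr1) and by a protein-coding entry in RefSeq, which gave 57 of 21900 protein-coding genes, 39 ligands and 18 receptors. Ccl21c has no usable chromosomal position in the gene table, so 56 of 21779 genes were measured. Cxcl11 is listed there as a transcribed pseudogene and was not a member. The data are ATAC-seq peaks, that is, stretches of open DNA into which the Tn5 transposase inserted adapters more often than into the background. The cells came from mouse marrow depleted of mature lineages and carry the label HSPC (hematopoietic stem and progenitor cells). The first group holds 3 libraries labelled inv(16) with 1 altered Smc3 allele (Smc3 D/+, here Smc3 het), and the second 3 libraries labelled inv(16) with wild-type Smc3 (Smc3 +/+, here Smc3 wt). All 6 libraries share inv(16), viral transduction and tamoxifen induction, which the labels tie to Cre, while the sources used here name neither the Cre driver nor the strain or age of the mice. The study's title asks how loss of 1 cohesin allele and inv(16) act together in acute myeloid leukemia.

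Chemokines are small secreted proteins that bind seven-transmembrane receptors coupled to inhibitory G proteins and so direct the migration of blood cells. In bone marrow, Cxcl12 from stromal cells holds stem and progenitor cells through its receptor Cxcr4, and ligands of Cxcr2 draw neutrophils out into the blood. Many ligand genes lie side by side in clusters that arose by duplication. Smc3 encodes a ring subunit of cohesin, the complex that forms chromatin loops, and inv(16) in human leukemia joins CBFB to MYH11.

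The files analysed hold 1 peak list per genotype and no values per library. Differences therefore have no replicate check, and no p-value is given. Read depth is unknown. The Smc3 het list is 3.18 times as long, with 47233 peaks, against 14830 in the Smc3 wt list. Each fold and -log10 q below is the authors' value for that peak against the background of its own list. The values of the lists are given side by side for each site and do not measure a change. "Alone" means that a peak overlapped no peak of the other list by 1 bp or more. Intervals on shares are exact (Clopper-Pearson) 95% intervals and cover counting error only, since neighbouring peaks are not independent. Of 8 markers of stem and progenitor cells, 7 had a peak in Smc3 het, against 4 in Smc3 wt, with 53 and 10 peaks in sum. Meis1 had 14 in Smc3 het and 5 in Smc3 wt, Mecom 10 and 1, and Kit 9 and 1. Markers of other cells also had peaks. Over all protein-coding genes 73.7% had a peak in Smc3 het and 47.2% in Smc3 wt. Counts over lists of 7 or 8 markers are too small to single out a cell type beside these shares. A Smc3 het peak was found at 8 of 8 monocyte markers and a Smc3 wt peak at 3 (32 and 4 peaks in sum). For neutrophil markers these were 5 and 3 of 8 (9 and 3 peaks), for T and NK cell markers 4 and 1 of 8 (20 and 3 peaks), for B cell markers 3 and 0 of 7 (7 and 0 peaks), and for stromal and endothelial markers 6 and 1 of 7 (15 and 1 peaks). Among the T cell markers Cd3e and Cd8a had no peak in either list, while Gata3 had 12 in Smc3 het, against 3 in Smc3 wt, and Tcf7, Il7r and Cd4 had 4, 3 and 1 in Smc3 het, against 0 in Smc3 wt. Among the neutrophil markers Elane and Ngp had none in either list, while Mmp9 had 4 in Smc3 het, against 1 in Smc3 wt. Mpo had 2 and 0, Camp and Ltf 1 and 0 each, and S100a9 1 and 1. S100a8 went the other way, with 0 in Smc3 het and 1 in Smc3 wt. The part of such cells in the results was not tested, and more cells of a type cannot be told apart from more open chromatin per cell.

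Open promoters were uncommon among these genes. RefSeq promoter windows (GRCm38.p6, the assembly of mm10, 250 bases before to 50 after the start of transcription) were at hand for 42 of the 57 members. A Smc3 het peak overlapped the window of 9 of the 42 (21.4%, interval 10.3 to 36.8) and a Smc3 wt peak that of 5 (11.9%, 3.98 to 25.6). Over all 17492 genes with a window these shares were 49.5% and 38.6%. The 5 promoters open in both lists were those of Ccl25, Ccl3, Cxcl2, Cxcr4 and Ccr1, and the 4 open in Smc3 het only were those of Cxcr3, Cx3cr1, Cx3cl1 and Cxcl3 (9.52% of the 42, against 11.04% of all genes with a window). For Ccl25 this holds for its upstream RefSeq start only. The window of its downstream start (chr8:4349338-4349637) had no peak in either list. The 6 windows with the most significant Smc3 het peaks are shown because they are the entry points of the genes described below. They are written 5′ to 3′ on the strand of the gene, and base 251 is the first transcribed base. Capitals mark, on either strand, the ETS core GGAA, the RUNX core TGTGGT, the NF-κB-type string (GGG, any 2 bases, TTTCC) and the TATA box TATAAA.
Ccl25 (chr8:4324960-4325259, plus strand): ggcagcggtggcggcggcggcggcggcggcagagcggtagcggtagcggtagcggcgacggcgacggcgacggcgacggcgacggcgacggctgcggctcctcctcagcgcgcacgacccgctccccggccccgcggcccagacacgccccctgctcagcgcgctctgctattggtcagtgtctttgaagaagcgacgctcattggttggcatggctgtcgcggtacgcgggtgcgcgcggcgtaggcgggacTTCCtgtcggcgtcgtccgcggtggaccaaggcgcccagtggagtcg
Ccl3 (chr11:83649329-83649628, minus strand): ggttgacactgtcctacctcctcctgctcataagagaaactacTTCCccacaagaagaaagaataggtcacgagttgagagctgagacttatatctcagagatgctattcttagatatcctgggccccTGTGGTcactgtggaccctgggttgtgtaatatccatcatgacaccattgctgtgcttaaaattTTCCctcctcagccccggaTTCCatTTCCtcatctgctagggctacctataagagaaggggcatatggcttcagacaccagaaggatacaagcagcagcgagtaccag
Cxcl2 (chr5:90903649-90903948, plus strand): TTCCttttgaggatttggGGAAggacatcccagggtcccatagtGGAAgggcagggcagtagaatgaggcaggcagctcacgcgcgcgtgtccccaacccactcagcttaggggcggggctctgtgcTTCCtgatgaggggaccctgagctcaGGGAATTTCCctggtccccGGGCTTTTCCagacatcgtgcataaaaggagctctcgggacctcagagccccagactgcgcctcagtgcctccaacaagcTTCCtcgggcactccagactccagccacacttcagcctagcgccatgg
Cxcr4 (chr1:128592250-128592549, minus strand): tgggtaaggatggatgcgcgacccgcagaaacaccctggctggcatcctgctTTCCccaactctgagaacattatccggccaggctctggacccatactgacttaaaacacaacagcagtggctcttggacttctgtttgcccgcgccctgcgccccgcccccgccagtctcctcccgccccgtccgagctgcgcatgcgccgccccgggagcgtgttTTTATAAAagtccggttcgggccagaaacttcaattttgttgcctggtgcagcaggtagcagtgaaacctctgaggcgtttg
Cxcr3 (chrX:101734098-101734397, minus strand): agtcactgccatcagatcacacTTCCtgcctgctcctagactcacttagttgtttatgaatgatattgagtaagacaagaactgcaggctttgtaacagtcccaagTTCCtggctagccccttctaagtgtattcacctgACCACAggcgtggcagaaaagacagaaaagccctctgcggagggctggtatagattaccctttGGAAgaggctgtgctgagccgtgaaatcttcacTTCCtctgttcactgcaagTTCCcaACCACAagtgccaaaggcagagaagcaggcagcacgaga
Cx3cr1 (chr9:120068247-120068546, minus strand): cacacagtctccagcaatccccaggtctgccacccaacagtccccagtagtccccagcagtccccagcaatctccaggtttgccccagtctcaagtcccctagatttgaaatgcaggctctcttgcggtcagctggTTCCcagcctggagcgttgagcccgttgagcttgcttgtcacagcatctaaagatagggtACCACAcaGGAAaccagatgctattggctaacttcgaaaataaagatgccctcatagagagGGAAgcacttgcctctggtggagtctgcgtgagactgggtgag

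The windows differ in the strings they hold. Cxcl2 has a pair of NF-κB-type strings, GGGAATTTCC from position -97 and GGGCTTTTCC from -78, with GGAA cores inside them. Cxcr4 has TATAAA from -30 and, overlapping it on the other strand, a second match from -32. Cxcr3 holds TGTGGT on the opposite strand from -110 and again from 12, Cx3cr1 once from -54, and Ccl3 once on its own strand from -122. The Ccl25 window shown, that of its upstream start, holds GGAA only, and once, on the opposite strand from position 4. The same strings were counted in all 21263 windows and in the 49 windows of the chemokine genes. GGAA was in 98.0% of the chemokine windows and 95.7% of all windows, TGTGGT in 22.4% and 14.97%, TATAAA in 24.5% and 12.6%, the NF-κB-type string in 12.2% and 1.60%, and the AP-1 string TGANTCA, absent from the 9 chemokine windows with a Smc3 het peak, in 18.4% and 6.99%. Some chemokine windows come from duplicated genes or from several starts of 1 gene and share sequence. A match describes these letters and is not a binding site.

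Across the whole system 114 Smc3 het peaks and 21 Smc3 wt peaks had their summit in a member or nearer to it than to any other protein-coding gene. At least 1 peak was found at 39 of the 56 genes in Smc3 het (69.6%, interval 55.9 to 81.2; 73.7% of all genes) and at 16 in Smc3 wt (28.6%, 17.3 to 42.2; 47.2% of all genes). A peak in the Smc3 het list alone was found at 36 genes (64.3%, 50.4 to 76.6), against 56.7% of all genes. Smc3 het peaks without any Smc3 wt peak were found at 23 genes (41.1%, 28.1 to 55.0), against 26.9% of all genes. The 23 include Ccl25, where a Smc3 het peak overlapped a Smc3 wt peak that was assigned to the neighbouring gene Elavl1. A Smc3 wt peak without Smc3 het counterpart was found at 0 members, against 1.78% of all genes. The median was 1.5 Smc3 het peaks and 0 Smc3 wt peaks per member, against 1 and 0 over all genes. Of the 114 Smc3 het peaks 92 were in that list alone (80.7%, 72.3 to 87.5), against 69.9% of all Smc3 het peaks. Of the 21 Smc3 wt peaks 0 were alone, which allows a share of up to 14.3% by a floor of 3 counts and 16.1% by the exact interval, against 2.9% of all Smc3 wt peaks. Members are short genes, with a median span of 5.16 kb against 17.2 kb for all genes. The median extent of genome nearest to a gene was 40.2 and 45.7 kb. In sum this extent was 3.51 Mb for the 56 members and 2681 Mb for the 21779 genes, so per gene it was smaller for members. Per Mb of it the Smc3 het list held 32.5 peaks at members and 17.5 over all genes, and the Smc3 wt list 5.99 and 5.48. Per gene the means were 2.04 and 2.19 in Smc3 het and 0.375 and 0.690 in Smc3 wt. The higher density in Smc3 het thus does not mean more peaks per member.

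**Figure D1:**
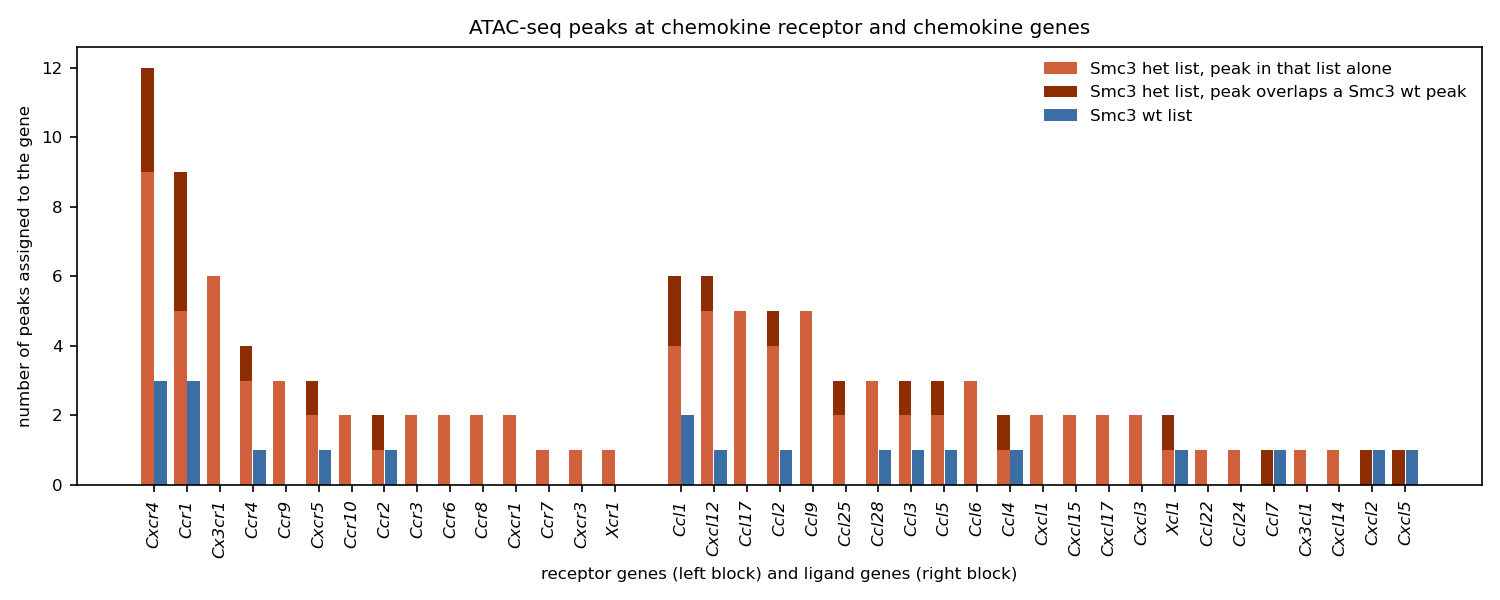
Number of peaks assigned to each chemokine receptor gene (left block) and chemokine gene (right block) shown, as stacked bars for the Smc3 het list (alone or overlapping a Smc3 wt peak) and a bar for the Smc3 wt list. Cxcr4 with 12 and Ccr1 with 9 Smc3 het peaks stand highest, and each had 3 Smc3 wt peaks.

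The mean number of peaks per gene was higher for receptors than for ligands, and 2 receptors held a large part of the peaks. The 18 receptors had 53 Smc3 het and 9 Smc3 wt peaks (mean 2.94 and 0.5 per gene), and the 38 ligands with a position had 61 and 12 (1.61 and 0.316). Smc3 het peaks were found at 16 receptors and 23 ligands, and Smc3 wt peaks at 5 and 11. The share of Smc3 het peaks in that list alone was 81.1% (68.0 to 90.6) for receptors and 80.3% (68.2 to 89.4) for ligands, so the classes differed by less than their counting error.

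Cxcr4, the stem-cell receptor for Cxcl12, had the most peaks, 12 in Smc3 het, against 3 in Smc3 wt. Its promoter peak (chr1:128592096-128592831 in Smc3 het) had a fold of 4.25 and a -log10 q of 16.2, and its Smc3 wt counterpart a fold of 3.04 and 5.11. A second peak lay inside the gene (chr1:128590866-128591930), with a -log10 q of 8.68 in Smc3 het and 4.56 in Smc3 wt. The most significant one lay far upstream, 113 kb from the gene (chr1:128705021-128705512), with a fold of 6.40 and a -log10 q of 35.9 in Smc3 het and 4.56 and 13.5 in Smc3 wt. All 3 Smc3 wt peaks thus had a Smc3 het counterpart. The other 9 Smc3 het peaks had none. They included a site 121 kb upstream (chr1:128712735-128713198, -log10 q 20.3), 1 at 22.7 kb (chr1:128614683-128615559, 10.3) and 1 at 195 kb (chr1:128786975-128787571, 10.3). The remaining 6 had a -log10 q of 1.34 to 4.52. Cxcr4 lies in a wide gene-poor stretch, with 430 kb of genome nearest to it, and 7 of its 12 Smc3 het peaks lay over 100 kb from the gene.

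Ccr1, a receptor of monocytes and neutrophils for Ccl3, Ccl5 and related ligands, had 9 Smc3 het and 3 Smc3 wt peaks. A peak over its start (chr9:123968458-123968856) had a -log10 q of 10.3 in Smc3 het and 6.03 in Smc3 wt. The rest formed a group between 19.8 and 38.7 kb beyond the 3′ side of the gene. The most significant of these (chr9:123924039-123925169, 1131 bp) had a fold of 5.18 and a -log10 q of 46.1 in Smc3 het, and its Smc3 wt counterpart (1505 bp) 5.18 and 31.6. That wider Smc3 wt peak also overlapped a second Smc3 het peak, and another Smc3 het peak at 38.7 kb overlapped a Smc3 wt peak with a -log10 q of 6.03. The 5 Smc3 het peaks in that list alone had a -log10 q of 2.41 to 9.19.

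Cx3cr1, the fractalkine receptor of monocytes, had 6 peaks, all of them in Smc3 het, and 0 in Smc3 wt. They covered the promoter (chr9:120068230-120068459, fold 3.96, -log10 q 12.2), 3 sites inside the gene (-log10 q 8.06, 11.1 and 3.03) and sites 5.32 kb beyond its 3′ side (9.75) and 5.10 kb upstream (6.47). Ccr2, which draws monocytes out of the marrow in answer to Ccl2, had 2 Smc3 het peaks, with 1 Smc3 wt peak. The shared site lay 3.63 kb from the gene (chr9:124112712-124112961), with a -log10 q of 5.96 in Smc3 het and 2.59 in Smc3 wt. The 4 monocyte receptors together had 18 Smc3 het peaks and 4 Smc3 wt peaks, and 13 of the 18 (72.2%, 46.5 to 90.3) were alone, near the 69.9% of all Smc3 het peaks.

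Receptors of lymphocytes, dendritic cells and eosinophils, 11 genes, had 21 Smc3 het and 2 Smc3 wt peaks, and 19 of the 21 (90.5%, 69.6 to 98.8) were alone, an interval that includes the 69.9% of all Smc3 het peaks. Ccr4, a receptor of helper T cells, had 4 Smc3 het peaks, with 1 Smc3 wt peak. Its most significant peak (chr9:114501134-114501598, -log10 q 19.1) lay inside the gene and was alone, and the shared one (chr9:114502818-114503300) had a -log10 q of 10.2 in Smc3 het and 2.16 in Smc3 wt. Cxcr5, which guides B cells to follicles, had 3 and 1, with the shared site 11.7 kb away (chr9:44537447-44538343, 10.3 in Smc3 het and 4.32 in Smc3 wt). Ccr9, a receptor of thymic and gut-homing T cells, had 3 weak Smc3 het peaks 12.7 to 23.9 kb away, with a -log10 q of 2.81 to 3.21, and 0 in Smc3 wt. Cxcr3, the receptor for interferon-induced chemokines on effector T cells, had a single Smc3 het peak over its start (chrX:101733843-101734384, 13.4). Ccr6 had 2 Smc3 het peaks, the stronger inside the gene (chr17:8251570-8252321, 12.8), and Ccr7, the lymph-node homing receptor, had 1 inside the gene (9.13). Ccr3, Ccr8 and Ccr10 had 2 Smc3 het peaks each and Xcr1 had 1, all alone. Cxcr6 had no peak in either list. Of the neutrophil receptors, Cxcr2 had no peak in either list and Cxcr1 had 2 Smc3 het peaks outside the gene, with a -log10 q of 4.49 and 4.87, and 0 in Smc3 wt.

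**Figure D2:**
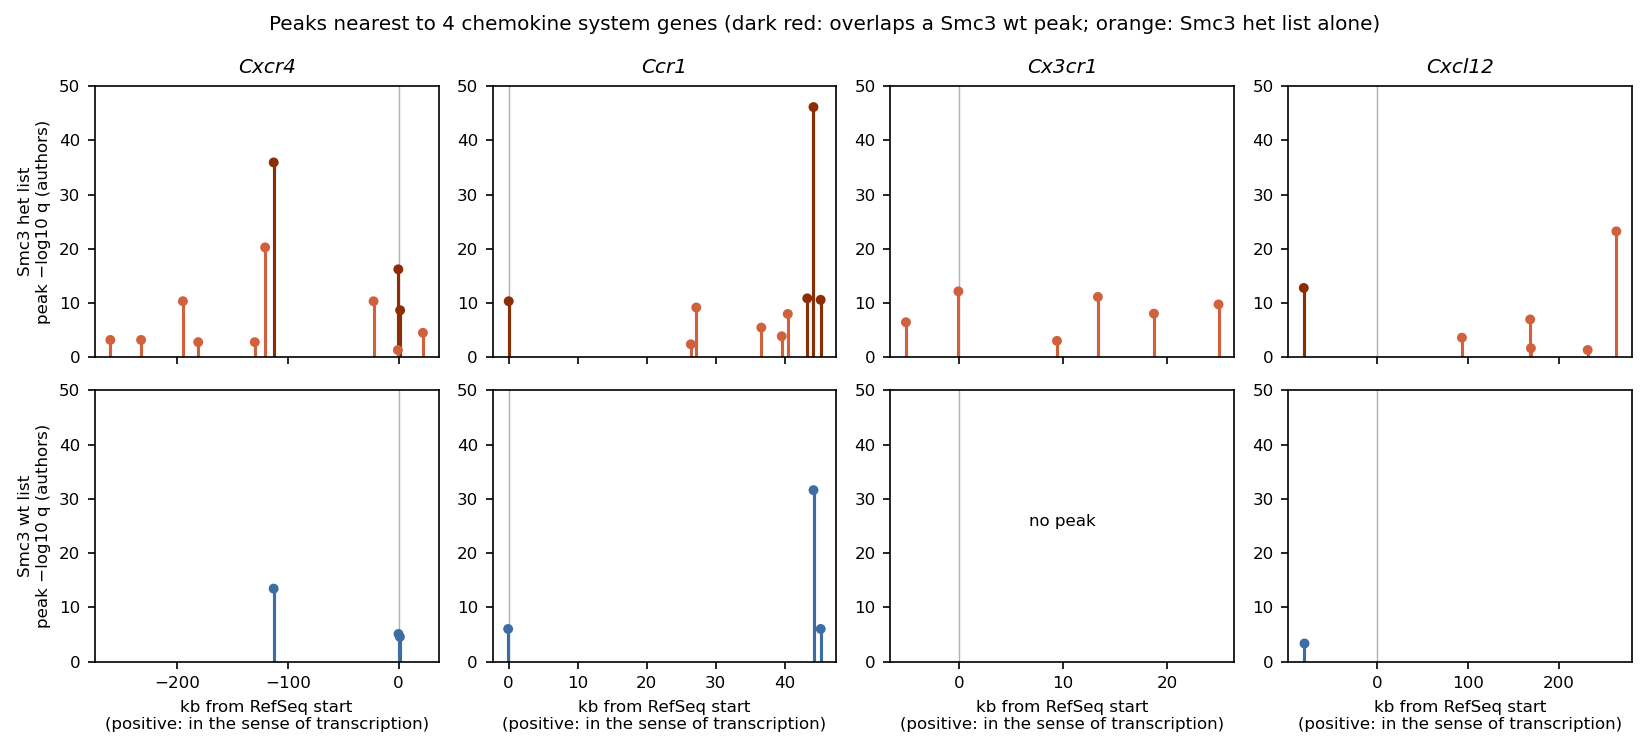
Peaks nearest to Cxcr4, Ccr1, Cx3cr1 and Cxcl12 by summit position (x axis, kb from the RefSeq start) and authors' -log10 q (y axis), Smc3 het list above and Smc3 wt list below, each value belonging to its own list. The tallest Smc3 het peaks of Cxcr4 (-log10 q 35.9) and Ccr1 (46.1) lie away from the start and overlap Smc3 wt peaks, while Cx3cr1 has 6 Smc3 het and 0 Smc3 wt peaks.

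Among the homeostatic ligands, which tissues make without inflammation, peaks were few. The 10 genes with a position had 13 Smc3 het and 2 Smc3 wt peaks. Their means were 1.3 and 0.2 per gene, against 2.19 and 0.690 over all genes. Of the 10 genes 6 had no peak in either list, against 25.9% of all genes. Cxcl12, the stromal ligand of Cxcr4, had 6 Smc3 het peaks, against 1 in Smc3 wt, all at least 80.3 kb from the gene and none inside it. The shared site lay 80.9 kb away (chr6:117087295-117088031), with a -log10 q of 12.8 in Smc3 het, against 3.49 in Smc3 wt, and the most significant, 250 kb away (chr6:117431248-117431858, 23.2), was alone. Ccl25, the ligand of Ccr9, had 3 Smc3 het peaks. The peak over its upstream start (chr8:4324741-4325591) had a fold of 7.20 and a -log10 q of 64.0 in Smc3 het, and the overlapping Smc3 wt peak 6.74 and 38.8. Its downstream start had no peak in either list. The summit of that Smc3 wt peak was nearer to the neighbouring gene Elavl1, so it is not counted at Ccl25, and the accessibility of the 2 genes cannot be told apart there. Ccl28 had 3 Smc3 het peaks inside the gene, all alone (-log10 q 2.41 to 14.1). Its 1 Smc3 wt peak, 6.44 kb outside, overlapped a Smc3 het peak counted at Tmem267. Cxcl14 had 1 weak Smc3 het peak. Cxcl13, Ccl19, Ccl27a, Ccl27b, Ccl21a and Ccl21b had none in either list, nor had Ccl21d. The Ccl21 and Ccl27 genes are near-identical copies on chromosome 4, and the treatment of reads that match several copies is not stated.

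The inflammatory CC ligands, the group with the most genes, held the most peaks. Their means were 2.07 Smc3 het and 0.5 Smc3 wt peaks per gene, against 2.19 and 0.690 over all genes. The 14 genes had 29 Smc3 het and 7 Smc3 wt peaks, and 22 of the 29 (75.9%, 56.5 to 89.7; 69.9% of all Smc3 het peaks) were in the Smc3 het list alone. Ccl3, a ligand of Ccr1 made by myeloid cells, had its start covered in both lists (chr11:83648994-83649808, fold 6.14 and -log10 q 32.9 in Smc3 het, and 5.09 and 17.4 in Smc3 wt). The summit of this peak lies 114 bp upstream of the Ccl3 start within the span of Ccl4, a related ligand, so the rule counts it at Ccl4, with 2 Smc3 het peaks and 1 Smc3 wt peak. Ccl3 itself was counted 3 and 1, with a shared site 7.39 kb away (chr11:83640291-83640769, 22.4 in Smc3 het and 15.5 in Smc3 wt). Ccl5, a ligand of Ccr1 and Ccr3, had 3 and 1, with the shared site 19.8 kb away (chr11:83550167-83550916, 17.7 in Smc3 het, against 6.03 in Smc3 wt) and a site 13.9 kb away in Smc3 het alone (15.6). Ccl9, a myeloid ligand of Ccr1, had 5 Smc3 het peaks, all alone, led by 1 inside the gene (chr11:83577102-83577443, 14.6), and its neighbour Ccl6 had 3, all alone, led by 1 at 23.7 kb (12.8). Neither had a Smc3 wt peak.

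Ccl2, the ligand of Ccr2, had 5 Smc3 het peaks, with 1 Smc3 wt peak. The shared site lay 28.3 kb away (chr11:82006848-82007390), with a -log10 q of 16.4 in Smc3 het and 5.26 in Smc3 wt. The peak over the end of the gene span at position 82035577 (chr11:82035422-82035680, 9.18) was in Smc3 het alone. Ccl7, another Ccr2 ligand, had 1 peak in each list, 3.90 kb away (chr11:82041650-82042045, 17.4 in Smc3 het and 7.72 in Smc3 wt). Ccl1, the ligand of Ccr8, had 6 Smc3 het and 2 Smc3 wt peaks. Both Smc3 wt peaks were shared, the more significant 34.8 kb away (chr11:82214447-82215082, 25.5 in Smc3 het, against 12.1 in Smc3 wt) and the other 3.92 kb away (5.76 in Smc3 het and 2.74 in Smc3 wt). Ccl24, an eosinophil attractant, had 1 weak Smc3 het peak. Ccl8, Ccl11, Ccl12, Ccl20 and Ccl26 had none in either list.

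The CXC ligands of neutrophils, most of which act through Cxcr2, all had a Smc3 het peak, as did 73.7% of all genes. The 5 genes had 8 Smc3 het and 2 Smc3 wt peaks. Their means were 1.6 and 0.4 per gene, against 2.19 and 0.690 over all genes. Of the 8 Smc3 het peaks 6 were alone, with an interval (34.9 to 96.8%) that includes the 69.9% of all Smc3 het peaks. Cxcl2 had a broad promoter peak (chr5:90903079-90903981, fold 5.68 and -log10 q 26.3 in Smc3 het, and 3.63 and 7.72 in Smc3 wt), with the pair of NF-κB-type strings printed above under it. Cxcl5 had the most significant peak of any member in Smc3 het, 17.1 kb from the gene (chr5:90741941-90742383, fold 9.47 and -log10 q 65.9 in Smc3 het, and 5.39 and 19.3 in Smc3 wt). Cxcl1, Cxcl3 and Cxcl15 had 2 Smc3 het peaks each and none in Smc3 wt, including a weak peak over the Cxcl3 promoter (chr5:90785958-90786202, 3.63). The interferon-induced ligands Cxcl9 and Cxcl10 had none in either list. Among the other ligands, Ccl17, a ligand of Ccr4, had 5 Smc3 het peaks from 9.86 kb outside the gene to its interior (-log10 q 2.72 to 10.1) and 0 in Smc3 wt. Cx3cl1, the ligand of Cx3cr1, had its promoter covered in Smc3 het alone (chr8:94771978-94772543, 7.41). Xcl1, the ligand of Xcr1, had 2 and 1, with a shared site 32.5 kb away (chr1:164898907-164899202, 13.4 in Smc3 het and 6.58 in Smc3 wt). Ccl22 had 1 and Cxcl17 had 2 Smc3 het peaks, all alone, and Cxcl16 had none in either list.

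Smc3 het peaks were denser in 4 of the gene clusters than over the genome, gene-poor stretches included. The Smc3 wt list held only 0 to 3 peaks in each of these clusters, too few to set their density against that of the genome. Runs of at least 3 members less than 150 kb apart gave 6 clusters, of which 5 are described here. The Ccl5 to Ccl4 cluster (chromosome 11, 83525778 to 83664683) held 16 Smc3 het and 3 Smc3 wt peaks in 139 kb, or 11.5 and 2.16 per 100 kb. The whole genome had 1.76 and 0.552 per 100 kb. The Ccl22 to Ccl17 cluster held 6 and 0 in 66.4 kb (9.04 and 0 per 100 kb), the Cxcl5 to Cxcl2 cluster 9 and 2 in 147 kb (6.14 and 1.36), and the Ccl2 to Ccl1 cluster 5 and 1 in 144 kb (3.47 and 0.693). Cluster counts take every summit between the ends of the cluster, whichever gene it was assigned to. The Cxcl5 to Cxcl2 counts include 2 Smc3 het peaks and 1 Smc3 wt peak of Pf4, which is not a member. They leave out the peak of Cxcl5 in each list, which lay outside the cluster. The Ccl27b to Ccl21a cluster held 0 in both lists over 123 kb. Within the Ccl2 to Ccl1 cluster the peaks lay at its ends, and the stretch of Ccl11, Ccl12 and Ccl8 had none.

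**Figure D3:**
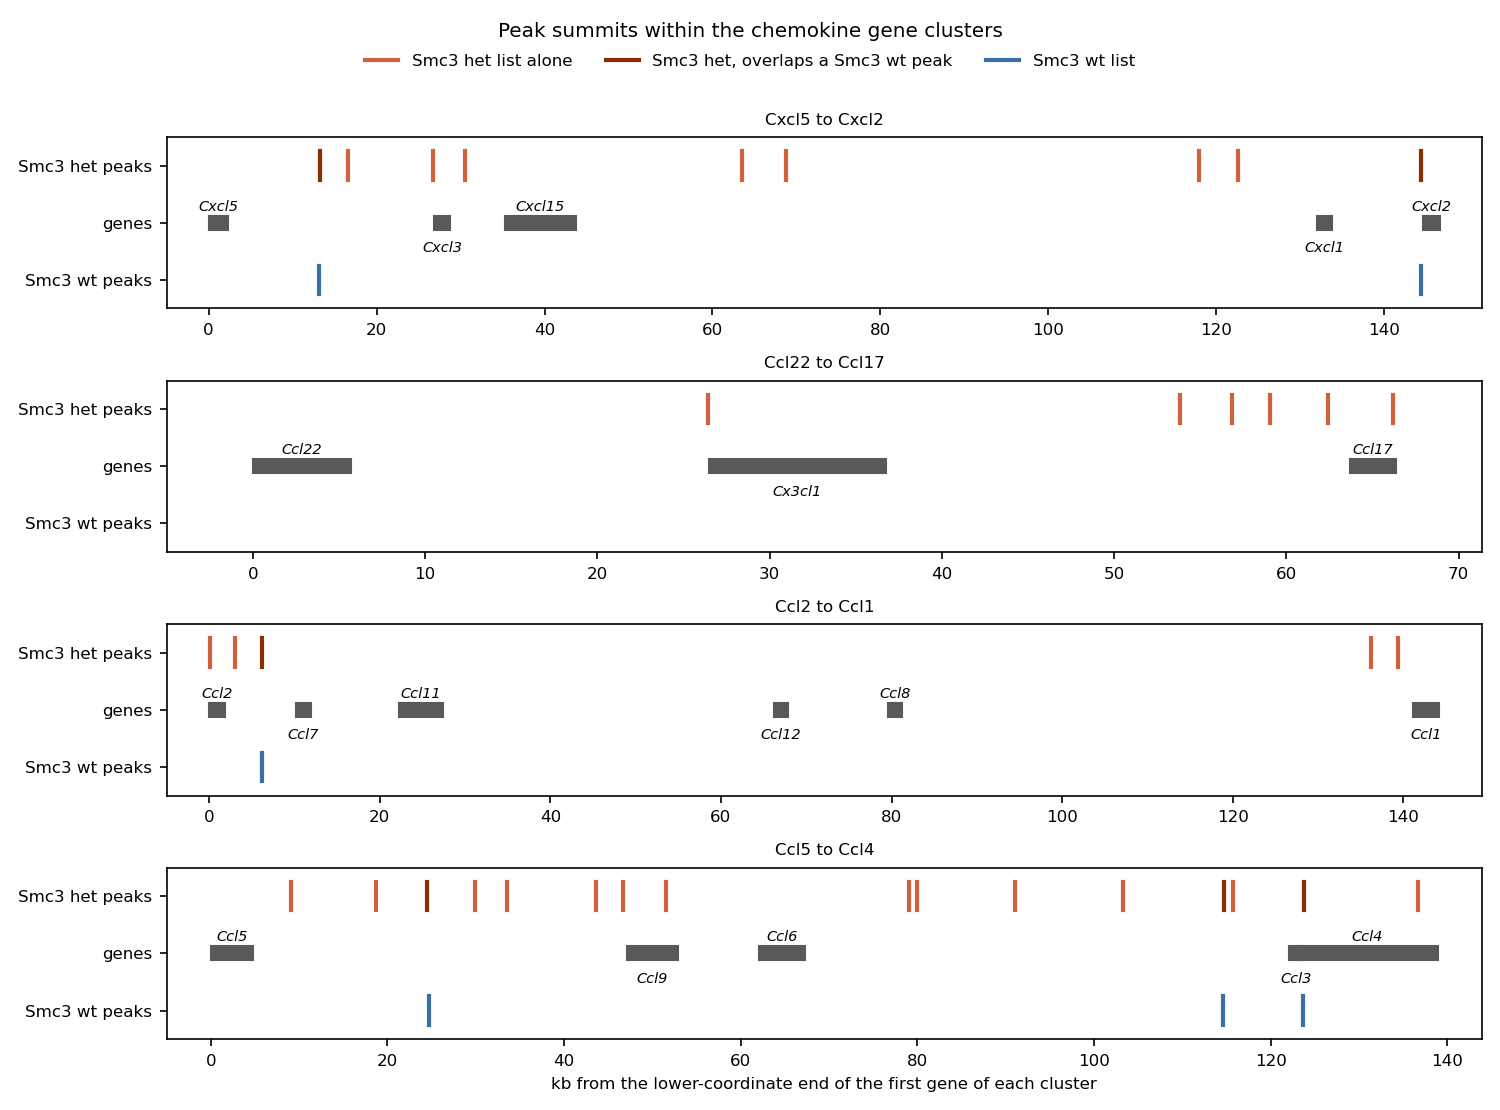
Summits of Smc3 het peaks (top row of each panel) and Smc3 wt peaks (bottom row) in 4 clusters with a peak, against kb from the first gene; grey boxes are member genes, the Ccl3 box overlaps the Ccl4 box, and other genes of the clusters are not drawn. The Ccl5 to Ccl4 panel holds 16 Smc3 het and 3 Smc3 wt peaks.

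Sharing followed the significance of the peak in its list. The Smc3 het list was split by -log10 q into 10 classes of equal size, with class 1 the most significant. Of the 26 chemokine peaks in classes 1 to 3 14 overlapped a Smc3 wt peak, and of the 88 below them 8 did. Applying the share of all peaks in each class to the members' peaks gives 26.9 shared peaks, where 22 were counted. Applying it by class and by position (at a gene end, inside, outside) gives 25.9. In each class the interval of the members included the share of all peaks, for example 37.5% (15.2 to 64.6) and 51.5% in class 3. The 12 peaks of classes 1 to 3 in the Smc3 het list alone were at Cxcl12, Cxcr4, Ccr4, Cxcl15, Ccl5, Ccl9 with 2, Ccl28, Cxcr3, Cxcl1, Ccl6 and Ccr6. Members' peaks in the Smc3 het list alone had a median width of 240.5 bp and those overlapping a Smc3 wt peak 517.5 bp, against 246.5 and 640.0 bp over all peaks. With the Smc3 het list cut to its 14830 most significant peaks, 27 lay at members and 13 had no Smc3 wt counterpart (48.1%, 28.7 to 68.1), against 23.9% of all. In turn 7 of 21 Smc3 wt peaks were unmatched in the cut list (33.3%, 14.6 to 57.0), against 22.6% of all. The shares of all peaks in each class would give 9.97 and 6.55 unmatched peaks. In the full lists the 7 Smc3 wt peaks each overlapped a Smc3 het peak.

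**Figure D4:**
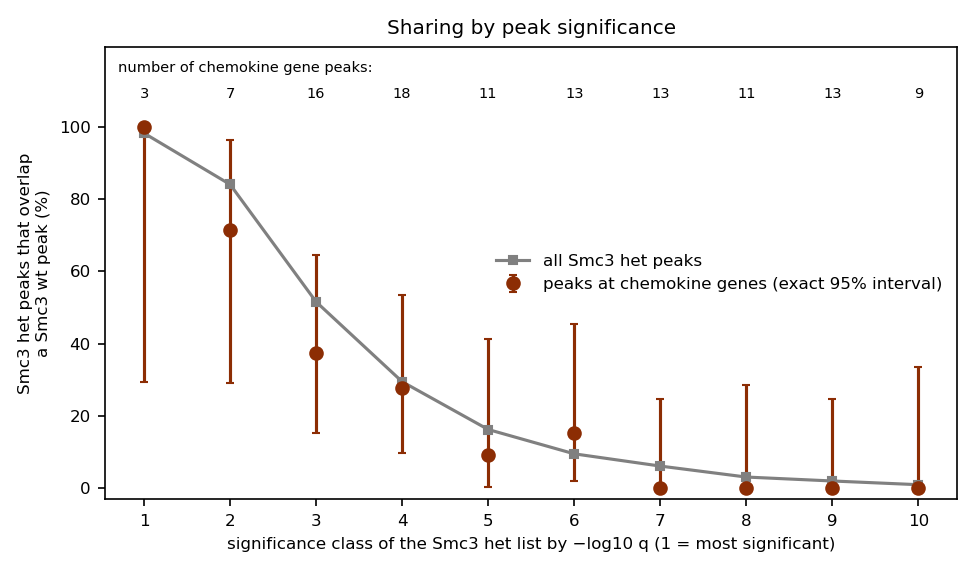
Share of Smc3 het peaks that overlap a Smc3 wt peak (y axis, %) by significance class of the Smc3 het list (x axis, 1 the most significant), for peaks at chemokine genes (circles with exact 95% intervals, number of peaks above) and for all peaks (squares and line). Both series are highest in class 1, and the intervals of the chemokine gene peaks include the line.

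Most peaks of the chemokine genes lay outside them. In Smc3 het 23 of the 114 summits (20.2%, 13.2 to 28.7) lay inside the gene span and 42 (36.8%, 28.0 to 46.4) lay 5 to 25 kb outside, against 52.4% and 12.6% of all Smc3 het peaks. In Smc3 wt 3 of the 21 summits (14.3%, 3.05 to 36.3) lay inside and 5 (23.8%, 8.22 to 47.2) lay 5 to 25 kb outside, against 54.1% and 8.19% of all Smc3 wt peaks. The median distance from the gene was 8.03 kb in Smc3 het and 7.45 kb in Smc3 wt, and 0 for all peaks of each list. A shorter gene leaves less room inside it, and the part of gene length in these shares was not tested. A peak within 1 kb of either end of the gene was found at 15 members in Smc3 het (26.8%, 15.8 to 40.3; 46.8% of all genes) and at 4 in Smc3 wt (7.14%, 1.98 to 17.3; 32.9% of all genes). These counts take only peaks assigned to the gene. The Smc3 wt peaks over the starts of Ccl25 and Ccl3 were assigned to Elavl1 and Ccl4, so they are not counted at Ccl25 and Ccl3.

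**Figure D5:**
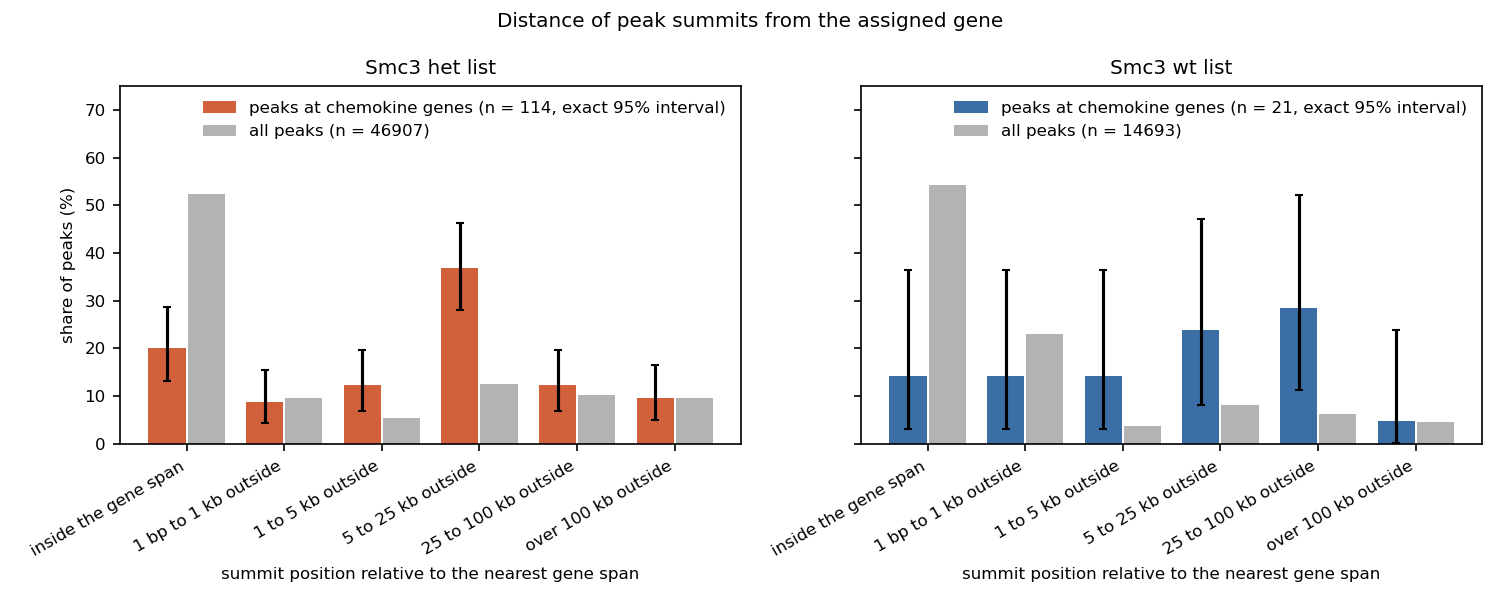
Share of peak summits (y axis, %) by distance from the assigned gene span, for peaks at chemokine genes (coloured bars with exact 95% intervals) and all peaks (grey bars), Smc3 het list on the left and Smc3 wt list on the right. Of the chemokine gene summits 20.2% in Smc3 het and 14.3% in Smc3 wt lie inside the gene, below the grey bars.

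Partner genes of the pathway were read from lists outside the members. The 9 atypical receptors, related receptors and platelet chemokines had 19 Smc3 het peaks, with 1 Smc3 wt peak, and 18 of the 19 (94.7%, 74.0 to 99.9) were alone. Cmklr1, the chemerin receptor, had 6 and 0, Ackr3, a scavenger of Cxcl12, 4 and 0, and the decoy receptor gene Ackr2 and the gene Ccrl2 3 and 0 each. The platelet chemokine gene Pf4 had 2 and 1. The 19 genes of signalling below the receptors had 101 Smc3 het and 31 Smc3 wt peaks, and 70 of the 101 (69.3%, 59.3 to 78.1) were alone, near the 69.9% of all Smc3 het peaks. Ptk2b, a focal adhesion kinase, had 14 and 6, Dock2, a Rac activator of leukocyte migration, 11 and 5, and Pik3cg, the kinase gamma subunit gene, 9 and 2.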

How the data were processed

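The alignment (Bowtie2, mm10) and the peak calling (MACS2) are named in the submitters' processing notes. The sources used here give no versions, filters, Tn5 shift, control track or statement on pooling of libraries. The deposited files are narrowPeak lists of 10 columns, 1 for each genotype, recognised by their peak names. The integer score that the authors deposited was not used. The deposited fold, a ratio to the background at the summit, and the deposited -log10 q were used to describe and rank peaks within a list. Smc3 het peaks reached down to a -log10 q of 1.30, and Smc3 wt peaks to 1.33.

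Each summit was assigned to the protein-coding genes whose RefSeq span (GRCm38.p6) holds it, or to the nearest. Only spans on chromosomes 1 to 19, X and Y were used. Spans starting in the first 3 Mb of chromosomes 1 to 19 and X, where mm10 has no sequence, were also left out. Together these rules removed 121 genes. Scaffold peaks had no gene (326 in Smc3 het, 137 in Smc3 wt). Assignment and overlap used Python 3.11.15 (numpy 2.4.6, pandas 2.3.3, scipy 1.17.1) and gave the same answers as bedtools 2.31.1 on simulated intervals. Members with most Smc3 het peaks (16, with ties at 3) and all with a Smc3 wt peak are named with values, and promoter sequences are the 6 with the most significant Smc3 het peak over them. The members and lists were chosen with earlier results of these data known. Planned tests over replicates could not be run without values for each library. Some items are not reported here. Alternatives changed the overlap rule, threshold, list length, gene assignment and peak position.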

Additional observations from a re-analysis of the deposited data

How the results depend on the processing

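The 114 Smc3 het peaks at chemokine genes became 68 at a -log10 q of at least 5 in both lists, 27 at equal list length and 54 when only gene spans and 5 kb around them were counted. The 21 Smc3 wt peaks became 13 with gene spans and 5 kb around them. At equal list length the share of Smc3 het peaks in that list alone was 48.1%, not 80.7%, and the number of genes with such a peak 12, not 36. The share and the number of genes were 76.5% and 28 at a -log10 q of at least 5. With gene spans and 5 kb around them they were 75.9% and 24. Fewer peaks enter by construction in each of these settings. The other settings (overlap of 50% of the shorter peak, peaks within 500 bp, nearest gene within 100 kb, peak midpoint) kept the share between 79.6% and 81.4% and the number of genes at 36. Over all Smc3 het peaks the share alone was 69.9% in the setting used above. It was 61.6% at a -log10 q of at least 5 and 23.9% at equal list length. With an overlap of 50% of the shorter peak it was 70.2%, and with peaks within 500 bp 68.1%. No paired analysis was possible because the files hold 1 list per genotype and no columns per replicate. Leaving out replicates could not be run for the same reason. Depth is unknown and the lists differ 3.18 times in length, so a site missing from the Smc3 wt list is not shown to be closed in Smc3 wt.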
